A study of Mus musculus with 8 samples.

Results

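The 10 genes described here, Trem2, Tyrobp, Spp1, Gpnmb, Lgals3, Lpl, Cst7, Fabp5, Igf1 and Axl, belong to a gene program of tissue phagocytes that is linked to the receptor TREM2. They were chosen by symbol and make up 10 of the 21848 genes of the deposited matrices. Single-cell RNA sequencing was performed on the right sensorimotor cortex of 8 mice (strain given as C57Bl/6J, female), 6 days after photothrombosis (PT), in which light applied after the dye Rose Bengal closes cortical vessels. Fibrinogen-depleted mice (n = 4) received 2.4 U ancrod, an enzyme that cleaves fibrinogen, each day through a subcutaneous osmotic minipump placed 2 days before PT, and control mice (n = 4) received saline by the same route. All 8 mice were injured, each gave 1 library, and replicates 1 to 3 of each group form batch 1 and replicate 4 of each group batch 2. The lesion with its spared rim was taken without meninges and corpus callosum, and the dissociated cells were not sorted, although red blood cells were lysed and myelin was removed. The transcripts hold no readout of blood fibrinogen, so the depletion itself was not checked.

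TREM2 is a surface receptor of microglia and macrophages that recognizes lipids, lipoproteins and cell debris. It carries no signaling domain of its own and acts through the adaptor TYROBP (DAP12), which recruits the kinase SYK. In injured or degenerating nervous tissue, phagocytes that take up lipid-rich debris are known to express secreted factors (Spp1, encoding osteopontin, and Igf1, insulin-like growth factor 1), lipid-handling genes (Lpl, lipoprotein lipase, and Fabp5, a fatty acid-binding protein), Gpnmb, a glycoprotein of lysosomes and the cell surface, Lgals3 (galectin-3), Cst7 (cystatin F, an inhibitor of lysosomal cysteine proteases) and Axl, a receptor tyrosine kinase that binds apoptotic cells through GAS6.

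The 250 bases before the start of Trem2, Spp1 and Gpnmb (GRCm39, GENCODE vM39 annotation, plus strand) are shown because Trem2 gives the program its name and because Spp1 and Gpnmb were found together across cells. The regions are chr17:48653179-48653428, chr5:104581915-104582164 and chr6:49013176-49013425. Capitals mark matches on either strand to GAGGAA, a core sequence bound by the myeloid factor PU.1 (here read as its reverse complement), and to TGANTCA. The latter is a loose form of the AP-1 sequence that leaves the central base open.
Trem2: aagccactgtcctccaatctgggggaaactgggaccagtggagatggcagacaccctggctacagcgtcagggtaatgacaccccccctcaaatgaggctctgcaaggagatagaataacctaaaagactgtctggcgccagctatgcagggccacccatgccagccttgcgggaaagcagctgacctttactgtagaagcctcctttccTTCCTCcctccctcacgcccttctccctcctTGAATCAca
Spp1: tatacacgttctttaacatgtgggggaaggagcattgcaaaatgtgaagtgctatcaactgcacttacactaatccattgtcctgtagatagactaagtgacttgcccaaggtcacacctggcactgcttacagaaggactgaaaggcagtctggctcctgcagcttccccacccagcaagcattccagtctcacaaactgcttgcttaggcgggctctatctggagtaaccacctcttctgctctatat
Gpnmb: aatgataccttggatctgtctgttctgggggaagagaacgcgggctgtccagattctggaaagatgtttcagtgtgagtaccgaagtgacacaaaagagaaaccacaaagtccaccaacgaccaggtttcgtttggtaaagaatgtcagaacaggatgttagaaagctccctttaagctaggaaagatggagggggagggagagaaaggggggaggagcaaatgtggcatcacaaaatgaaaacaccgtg
In the windows shown, GAGGAA was found 35 bases before the start of Trem2. It occurs in 22.9% of 21770 windows of this length before mouse genes. TGANTCA was found, as TGAATCA, 3 bases before the start of Trem2 and occurs in 6.17% of windows. CACGTG, an E-box core, was found in none of the windows shown and occurs in 6.26% of all windows. These matches describe letters in a window and show no binding.

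Droplets with at least 2000 UMIs (transcript molecules counted once each) and less than 20% mitochondrial UMIs were kept, 46216 in all, and 44072 cells remained after the removal of 2144 predicted doublets. Libraries held 97861434 to 122758649 UMIs in control mice and 126682918 to 142139441 in ancrod-treated mice, which did not overlap, whereas the median UMIs of kept droplets did (10653 to 14406 and 13930 to 17575). Cells were clustered without the 10 genes, and clusters were named from markers. Microglia-like cells numbered 17012, infiltrating macrophage-like cells 2527, border-associated macrophage-like cells 869 and monocyte-like cells 452. P2ry12, a microglial receptor, was at 618 CPM (UMIs of a gene per 1000000 UMIs of the class) ± 83.4 (SD, n = 8 mice) in microglia-like cells and at 51.0 ± 9.39 in infiltrating macrophage-like cells. Mrc1 was at 2707 ± 287 CPM in border-associated macrophage-like cells, and Ly6c2 was at 403 ± 110 CPM in monocyte-like cells. The name infiltrating macrophage-like rests on Ms4a7 and Thbs1 among its leading genes, whereas 2 other markers of that list were weak, with Arg1 at 12.7 ± 9.63 CPM and Fn1 at 112 ± 22.0 CPM, near its 109 ± 32.1 CPM in microglia-like cells. Gpnmb and Spp1 are themselves among the leading genes of its main cluster, although they took no part in the clustering.

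The receptor and its adaptor were detected in nearly every microglia-like and infiltrating macrophage-like cell. Trem2 was at 2066 ± 124 CPM (SD, n = 8 mice) in infiltrating macrophage-like cells, 1507 ± 49.5 CPM in microglia-like cells, 813 ± 93.7 CPM in border-associated macrophage-like cells and 89.3 ± 25.4 CPM in monocyte-like cells. Each of these steps kept its order in 8 of 8 mice, and the values of neighbouring classes did not overlap. After every cell was thinned to 2000 UMIs, Trem2 was detected in 95.2% ± 1.87 of infiltrating macrophage-like cells, 91.1% ± 1.06 of microglia-like cells, 73.6% ± 3.31 of border-associated macrophage-like cells and 15.7% ± 10.7 of monocyte-like cells, against 3.32% ± 1.22 of endothelial-like cells, which should lack it. Before thinning these shares were 99.5%, 98.7%, 95.0%, 51.9% and 15.3%, at median depths of 27339, 15359, 17788, 14426.5 and 9877 UMIs a cell. Tyrobp, which serves many activating receptors of myeloid and NK cells, had a wider range of classes. Its highest levels were 4080 CPM in neutrophil-like cells and 3503 ± 327 CPM in infiltrating macrophage-like cells, a pair that overlapped, followed by monocyte-like (2261 CPM), microglia-like (2074 ± 82.5 CPM), border-associated macrophage-like (1763 CPM) and dendritic cell-like cells (1496 CPM). Monocyte-like and microglia-like cells overlapped for Tyrobp, with the first higher in 7 of 8 mice. After thinning, Tyrobp was detected in 91.5 to 94.6% of microglia-like and 96.7 to 99.5% of infiltrating macrophage-like cells over the mice. In microglia-like cells it was at 0.76 to 1.90 times its level in RNA outside cells (droplets with at most 100 UMIs). The part of that RNA in the share was not tested.

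**Figure D1:**
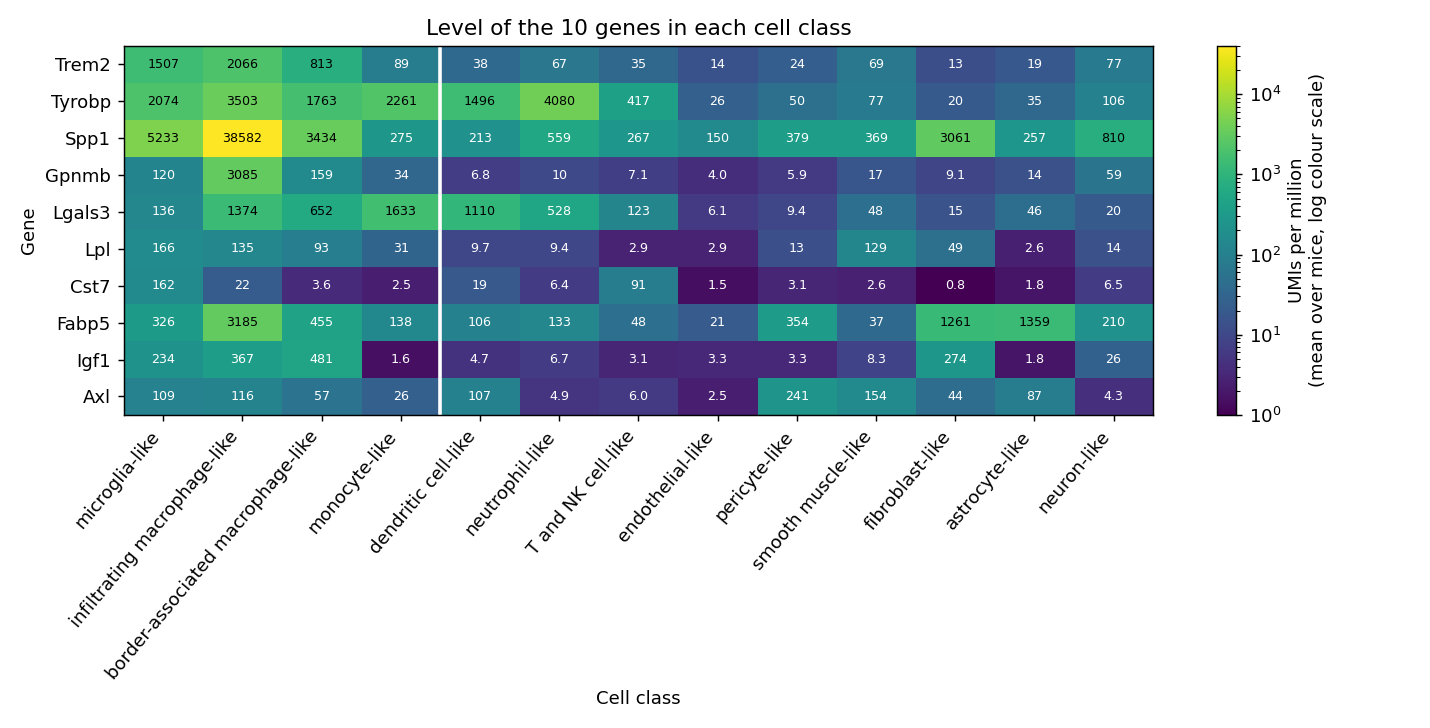
Mean level of the 10 genes (rows) in 13 cell classes (columns), in CPM as the mean of 8 mice (7 for neuron-like cells), on a logarithmic colour scale, with the value printed in each cell. The 4 phagocyte classes stand left of the white line; Trem2 was highest in infiltrating macrophage-like cells (2066) and microglia-like cells (1507), while Tyrobp reached 4080 in neutrophil-like cells.

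Of the secreted factors, Spp1 was concentrated in infiltrating macrophage-like cells at 38582 ± 10984 CPM. This was 7.37 times the 5233 ± 2370 CPM of microglia-like cells, in 8 of 8 mice and without overlap. Border-associated macrophage-like cells (3434 ± 1189 CPM) and fibroblast-like cells (3061 CPM) followed, and these neighbours overlapped. Without a low-UMI cluster described below, border-associated macrophage-like cells held 1114 ± 435 CPM, a mean below that of fibroblast-like cells. Igf1, a growth factor for neurons and glia, had another order, with 481 CPM in border-associated macrophage-like cells, 367 ± 58.0 CPM in infiltrating macrophage-like cells, 274 CPM in fibroblast-like cells and 234 ± 79.5 CPM in microglia-like cells. Each pair of neighbours overlapped. From the first pair to the last the order held in 7, 7 and 3 of 8 mice, so most mice had more Igf1 in microglia-like than in fibroblast-like cells. In monocyte-like cells Igf1 was at 1.57 CPM, from 9 UMIs in all 8 mice.

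Gpnmb was the gene of the 10 with the steepest step between its first and second class. Infiltrating macrophage-like cells held 3085 ± 358 CPM, 19.4 times the 159 CPM of border-associated macrophage-like cells, and microglia-like cells held 120 ± 44.2 CPM. Without the low-UMI cluster described below, border-associated macrophage-like cells held 104 ± 30.8 CPM, a mean below that of microglia-like cells. After thinning, Gpnmb was detected in 86.7% ± 2.89 of infiltrating macrophage-like cells and in 5.07% ± 1.35 of microglia-like cells, beside 0.960% of endothelial-like cells (95.0%, 13.9% and 5.69% before thinning). Among the named classes, Lgals3 was highest at 1633 CPM in monocyte-like, 1374 ± 186 CPM in infiltrating macrophage-like and 1110 CPM in dendritic cell-like cells. An unnamed cluster described below was higher. Border-associated macrophage-like (652 CPM) and neutrophil-like cells (528 CPM) followed, while microglia-like cells held 136 ± 36.1 CPM and T and NK cell-like cells 123 CPM. Monocyte-like and infiltrating macrophage-like cells overlapped, with the first higher in 6 of 8 mice.

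The lipid-handling genes did not follow a single pattern. Fabp5 was highest in infiltrating macrophage-like cells (3185 ± 506 CPM), 2.34 times its level in astrocyte-like cells (1359 CPM) in 8 of 8 mice, and fibroblast-like cells (1261 CPM) overlapped with astrocyte-like cells. Microglia-like cells held 326 ± 94.2 CPM of Fabp5. Lpl, which releases fatty acids from lipoproteins, was at 166 ± 63.8 CPM in microglia-like, 135 ± 35.7 CPM in infiltrating macrophage-like, 129 CPM in smooth muscle-like and 92.7 CPM in border-associated macrophage-like cells, all overlapping with their neighbours.

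Cst7 was the member most restricted to microglia-like cells. It was at 162 ± 20.8 CPM there, at 90.5 CPM in T and NK cell-like cells and at 21.9 ± 2.73 CPM in infiltrating macrophage-like cells, in that order in 8 of 8 mice and without overlap. By class mean, Axl was highest in pericyte-like cells (241 CPM) and smooth muscle-like cells (154 CPM), in that order in 8 of 8 mice although the ranges overlapped, and infiltrating macrophage-like (116 ± 26.2 CPM), microglia-like (109 ± 20.6 CPM) and dendritic cell-like cells (107 CPM) overlapped.

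Because class levels weigh cells by their UMIs, levels over cells thinned to 2000 UMIs each were also taken. In microglia-like cells these were lower by more than 1.5 times for Spp1 (2610 CPM), Gpnmb (61.9 CPM), Lgals3 (75.2 CPM), Lpl (104 CPM), Fabp5 (180 CPM) and Igf1 (134 CPM), while Trem2 stayed at 1452 CPM and Axl at 108 CPM. In infiltrating macrophage-like cells thinned levels over the mice were 13101 to 46586 CPM for Spp1 and 2157 to 3056 CPM for Gpnmb. In border-associated macrophage-like cells thinning raised Spp1 to 8890 CPM, above the 2610 CPM of microglia-like cells. Thinned ranges in this class were 201 to 452 CPM for Gpnmb (107 to 209 before) and 539 to 1843 CPM for Fabp5 (295 to 803 before). There the class joined a cluster of 667 cells with a cluster of 202 cells whose median depth was 2892 UMIs. The small cluster held 46890 ± 15859 CPM of Spp1, 1220 ± 304 CPM of Gpnmb and 3404 ± 1317 CPM of Fabp5. Without it the class held 1114 ± 435 CPM of Spp1, 104 ± 30.8 CPM of Gpnmb and 286 ± 105 CPM of Fabp5, whereas Trem2 (751 ± 98.0 CPM) and Igf1 (490 ± 82.7 CPM) were near their values with it.

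Free RNA held many of these transcripts. Droplets with at most 100 UMIs, which hold RNA outside cells, carried Spp1 at 5265 to 21353 CPM over the 8 libraries. After thinning, Spp1 was detected in 31.4% ± 9.78 of endothelial-like cells, in 29.0% ± 14.0 of monocyte-like cells and in 40.7% ± 9.45 of microglia-like cells. T and NK cell-like cells reached 40.4% ± 9.44 and astrocyte-like cells 38.4% ± 11.3. The mean share in monocyte-like cells was thus no higher than in endothelial-like, T and NK cell-like or astrocyte-like cells. The part of free RNA in these shares was not tested. The share of microglia-like cells with a UMI does not separate them from T and NK cell-like or astrocyte-like cells. Their thinned levels did differ, at 2610 ± 1110 CPM in microglia-like and 347 CPM in T and NK cell-like cells. Before thinning the shares in endothelial-like, monocyte-like and microglia-like cells were 81.2%, 82.8% and 86.4%. Relative to free RNA, the level in infiltrating macrophage-like cells was 11.5 times for Gpnmb, 3.36 times for Spp1, 2.73 times for Fabp5 and 1.95 times for Trem2. In microglia-like cells it was 1.42 times for Trem2, 1.76 times for Cst7 and 2.07 times for Lpl but 0.452 times for Spp1 and 0.441 times for Gpnmb.

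Seen from the side of the tissue, infiltrating macrophage-like cells were 5.72% of cells and held 78.1% ± 5.38 of the Gpnmb UMIs, 54.1% ± 6.01 of Spp1, 39.0% ± 6.00 of Fabp5 and 35.1% ± 4.04 of Lgals3. Microglia-like cells were 38.6% of cells and held 86.4% ± 3.71 of the Cst7 UMIs, 67.1% ± 5.65 of Trem2, 63.8% ± 9.88 of Lpl, 57.2% ± 6.54 of Tyrobp, 52.8% ± 7.74 of Axl and 50.1% ± 13.1 of Igf1. Fibroblast-like cells held 19.1% ± 11.1 of Igf1 and 19.0% ± 11.4 of Fabp5. Unnamed clusters, 13.9% of cells, held 35.2% ± 5.39 of Lgals3. Most relevant among them were 1038 cells led by S100a4, Chil3 and Ccr2, which mix monocyte and macrophage markers and held Lgals3 at 3799 ± 326 CPM and Spp1 at 8814 ± 3832 CPM. Another unnamed cluster of 743 cells with a median of 2929 UMIs held Spp1 at 23044 ± 5241 CPM and Cst7 at 452 ± 113 CPM.

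Within microglia-like cells the 10 genes differed in how far they varied. Over 14 clusters, Trem2 ranged from 1060 ± 76.4 to 1905 ± 88.0 CPM, a factor of 1.80, and Tyrobp varied by a factor of 2.68. Factors rose through 4.23 for Axl, 11.5 for Cst7, 45.7 for Fabp5, 77.0 for Lgals3, 106 for Lpl and 110 for Gpnmb. They were highest at 141 for Spp1 (153 ± 62.0 to 21556 ± 8903 CPM) and 645 for Igf1 (1.23 ± 1.74 to 792 ± 154 CPM). The lowest Igf1 mean was smaller than its SD, so the size of that factor is uncertain. A cluster led by Cd5l, Igf1 and Saa3 (2227 cells) and a cluster of dividing cells led by Mki67, Top2a and Cenpf (450 cells) were the highest or second highest for Spp1, Gpnmb, Lgals3, Fabp5 and Igf1. Together they made up 15.4% ± 4.28 of microglia-like cells and 25.9% ± 6.09 of their UMIs, but held 91.2% ± 4.98 of the Gpnmb UMIs of microglia-like cells, 89.3% ± 4.33 of Spp1, 83.9% ± 5.25 of Igf1, 79.2% ± 5.02 of Fabp5 and 76.5% ± 4.52 of Lgals3. For Trem2 the share was 28.5% ± 6.28 and for Axl 18.1% ± 5.65. Lpl and Cst7 were also high in a cluster led by Il12b, Olr1 and Bcl2a1a, at 401 and 258 CPM. Axl was highest, at 229 ± 19.2 CPM, in the cluster led by the interferon response genes Ifit2, Cxcl10 and Mx1, whose level was followed by 148 CPM in the Il12b cluster. These clusters are a description, since the cells were grouped by genes that vary with the 10.

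**Figure D2:**
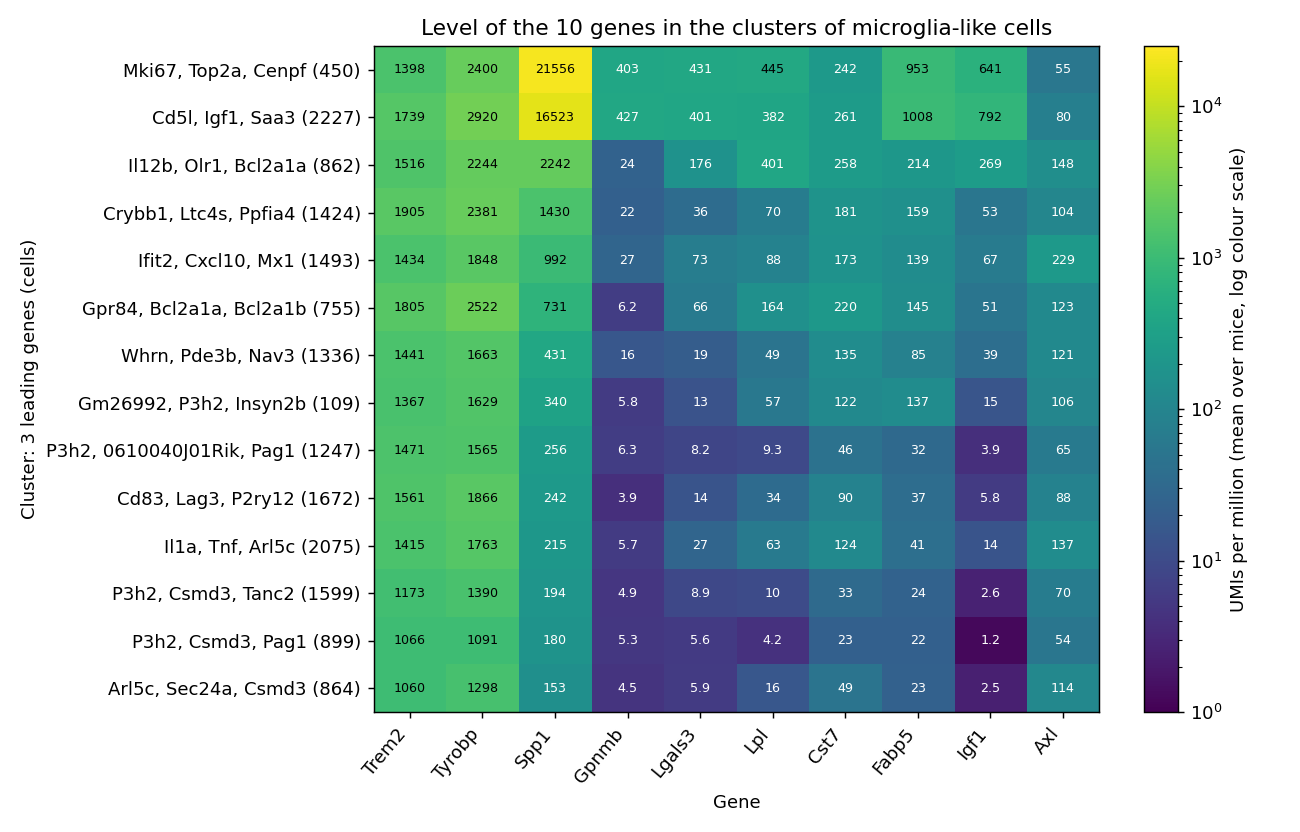
Mean level of the 10 genes (columns) in the 14 clusters of microglia-like cells (rows, named by 3 leading genes, with the number of cells), in CPM over mice on a logarithmic colour scale, rows ordered by Spp1. Spp1 fell from 21556 in the dividing cluster to 153 in the last row, whereas Trem2 stayed between 1060 and 1905.

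Among infiltrating macrophage-like cells, a cluster of 74 cells led by interferon response genes differed from the main cluster of 2453 cells. In the 4 mice with enough cells for a value, it held Axl at 269 ± 76.1 CPM and Spp1 at 10183 ± 7070 CPM, and the main cluster held 112 ± 25.9 CPM and 39109 ± 11076 CPM (8 mice).

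Across single cells thinned to 2000 UMIs, Spp1, Gpnmb and Fabp5 were found together. Correlations are Pearson r across cells of a mouse, given as the median of 8 mice with the range, and they describe cells of 1 class that share library and depth. In microglia-like cells Spp1 correlated with Igf1 (r = 0.58, 0.46 to 0.61), Fabp5 (0.53, 0.41 to 0.60) and Gpnmb (0.49, 0.39 to 0.54). In infiltrating macrophage-like cells Spp1 correlated with Fabp5 (0.59, 0.52 to 0.65) and Gpnmb (0.53, 0.46 to 0.67), and Gpnmb with Fabp5 (0.57, 0.48 to 0.60). Trem2 and Tyrobp had r = 0.22 (0.16 to 0.31) in microglia-like and 0.31 (0.19 to 0.37) in infiltrating macrophage-like cells. The correlation of Trem2 with Spp1 was 0.04 in the former and 0.24 in the latter. Axl stood apart, with r between -0.03 and 0.04 to every other member in microglia-like cells and with -0.17 (-0.27 to -0.14) to Spp1 in infiltrating macrophage-like cells. A thinned cell held a UMI of 3.15 ± 0.189 of the 10 genes in microglia-like, 6.08 ± 0.206 in infiltrating macrophage-like, 3.96 ± 0.216 in border-associated macrophage-like and 2.65 ± 0.151 in monocyte-like cells. The number was 2.38 in neutrophil-like, 2.29 in dendritic cell-like, 1.87 in fibroblast-like, 1.51 in astrocyte-like and 0.494 in endothelial-like cells, and it includes UMIs from free RNA.

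**Figure D3:**
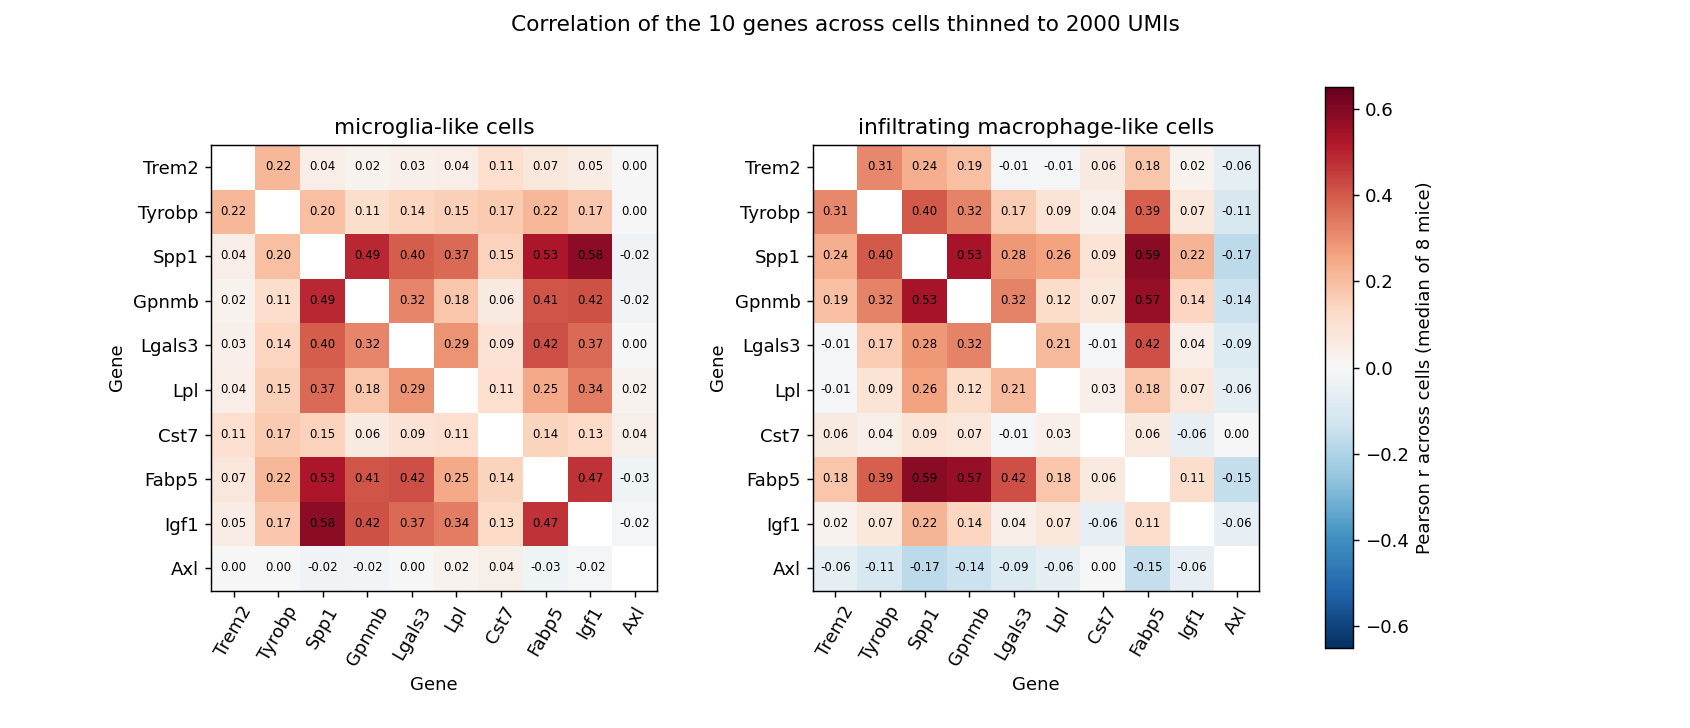
Pearson r between each pair of the 10 genes across cells thinned to 2000 UMIs, in microglia-like (left) and infiltrating macrophage-like cells (right), each value the median of 8 mice. Spp1, Gpnmb and Fabp5 form a warm block in both panels (0.41 to 0.59), and Axl is near 0 on the left and between -0.17 and 0.00 on the right.

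Over the 13 classes, the genes most like each member were found among 13234 genes by the Pearson r of the mean log2(CPM + 1), as a description over classes taken from the same 8 libraries. Trem2 was most like C1qb (r = 0.98), C3ar1 (0.98) and Pla2g15 (0.97), and Tyrobp was most like Fcer1g (0.99), Plek (0.99) and Ptpn6 (0.98). Spp1 was most like Pdzk1ip1 (0.92), Igf1 (0.91) and Pld3 (0.90), and Gpnmb was most like Gdf3 (0.92), Cd22 (0.90) and Trem2 (0.90). The pair Spp1 and Igf1 was mutual, since Igf1 was most like Rab3il1 (0.93), Spp1 (0.91) and Saa3 (0.86). For Lgals3 these were Cybb (0.95), AB124611 (0.94) and Mapkapk3 (0.93), and for Cst7 they were Rasal3 (0.90), Cd5 (0.89) and Slamf6 (0.88), genes of lymphocytes. For Lpl they were Plau (0.86), Itga9 (0.85) and Cmklr1 (0.84), for Fabp5 Pdpn (0.83), Tmem19 (0.81) and Chid1 (0.81), and for Axl Ppfibp2 (0.94), Ring1 (0.84) and Itgb5 (0.84).

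To determine whether fibrinogen depletion altered the 10 genes, UMIs were summed per mouse and class and compared over the 4 ancrod-treated and 4 control mice with edgeR's quasi-likelihood test, adjusted over all genes tested. A gene was called at an adjusted p under 0.05. None of the 10 genes was called in any of the 4 phagocyte classes, in 37 tests after the filter on low counts had removed Cst7 in border-associated macrophage-like cells and both Cst7 and Igf1 in monocyte-like cells. The lowest adjusted p was 0.603, and 4 of the 37 tests had an unadjusted p under 0.05. No other gene was called either. The 6194 cells of unnamed clusters were in none of these classes and entered no test of a class. Among them were cells with monocyte and macrophage markers and 3280 low-UMI cells that scored highest as a phagocyte class. The share called was 0% of 13113 genes in microglia-like cells (513 at an unadjusted p under 0.05, 3 called by DESeq2), 0% of 10814 in infiltrating macrophage-like cells (325, and 3 by DESeq2), 0% of 9452 in border-associated macrophage-like cells (632, and 13 by DESeq2) and 0% of 6262 in monocyte-like cells (197, and 5 by DESeq2). Of the 10 genes, DESeq2 called none in these classes. In simulated counts with 200 genes shifted by 1 on the log2 scale, 87.5% of them were recovered for microglia-like, 89.5% for infiltrating macrophage-like and 71.5% for monocyte-like cells. Smaller shifts and border-associated macrophage-like cells were not simulated. Each simulated gene had the spread typical of genes at its level, so the rates do not hold for members that vary more between mice. In microglia-like cells the SE of the log2 fold change was 0.42 for Spp1, 0.31 for Lpl and 0.29 for Gpnmb, beside 0.07 for Trem2.

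In microglia-like cells the receptor and adaptor had the log2 fold changes nearest to 0. Trem2 was at 1490, 1435, 1494 and 1596 CPM in control mice and at 1509, 1469, 1552 and 1510 CPM in ancrod-treated mice. The ancrod values lay within the range of the control values, and the log2 fold change was 0.05 ± 0.07 (SE). Tyrobp had a log2 fold change of 0.05 ± 0.08. Gpnmb had the lowest fold change of the 10, with 92.3, 159, 183 and 148 CPM in control mice and 78.2, 51.7, 134 and 118 CPM in ancrod-treated mice. The ancrod values lay toward the lower end, the groups overlapped, and the log2 fold change of -0.58 ± 0.29 did not pass (unadjusted p = 0.0731, adjusted p = 0.956, edgeR).

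Spp1 in microglia-like cells was at 3319, 6019, 7517 and 5401 CPM in control mice and at 2630, 2161, 8840 and 5977 CPM in ancrod-treated mice. Both extremes were ancrod-treated mice, and the log2 fold change was -0.16 ± 0.42. The same 2 mice, replicates 2 and 3, held the lowest and highest Spp1 in infiltrating macrophage-like cells, at 18277 and 57715 CPM, against 35559 to 43028 CPM in the 4 control mice. They were also lowest and highest in endothelial-like (68.0 and 284 CPM), T and NK cell-like (123 and 624 CPM), pericyte-like and astrocyte-like cells. In fibroblast-like cells replicate 2 was instead highest (4443 CPM), and the remaining tested classes did not share both extremes. Spp1 in free RNA was lowest in ancrod replicate 2 (5265 CPM) and highest in control replicate 3 (21353 CPM). The part of free RNA was not tested. Other log2 fold changes in microglia-like cells were -0.33 ± 0.25 for Fabp5, -0.29 ± 0.23 for Lgals3 and -0.19 ± 0.28 for Igf1. Lpl and Cst7 were at 0.08 ± 0.31 and 0.08 ± 0.13. Single mice set the sign for 4 genes: Spp1 was above 0 without ancrod replicate 1 or 2 or control replicate 3 (0.03 to 0.09), Igf1 without control replicate 3 (0.13), Lpl was below 0 without ancrod replicate 4 (-0.33) or control replicate 4 (-0.02), and Cst7 without control replicate 1 (-0.02).

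Axl was the only member with an unadjusted p under 0.05 in microglia-like cells. It was at 102, 87.8, 87.5 and 121 CPM in control mice and at 128, 146, 103 and 99.6 CPM in ancrod-treated mice, overlapping, with a log2 fold change of 0.30 ± 0.14 (unadjusted p = 0.0478, adjusted p = 0.956, edgeR). The batches had opposite signs, with a log2 ratio of 0.44 in batch 1 and -0.28 in the single pair of batch 2. In infiltrating macrophage-like cells the log2 fold change of Axl was -0.17 ± 0.17. The difference between the effects in these classes, tested as an interaction, was -0.44 ± 0.14 (unadjusted p = 0.00664, adjusted p = 0.891), and the share called was 0% of 12694 genes (593 at an unadjusted p under 0.05, none by DESeq2). Gpnmb had the next lowest p, with an interaction of 0.42 ± 0.20 (adjusted p = 0.891).

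**Figure D4:**
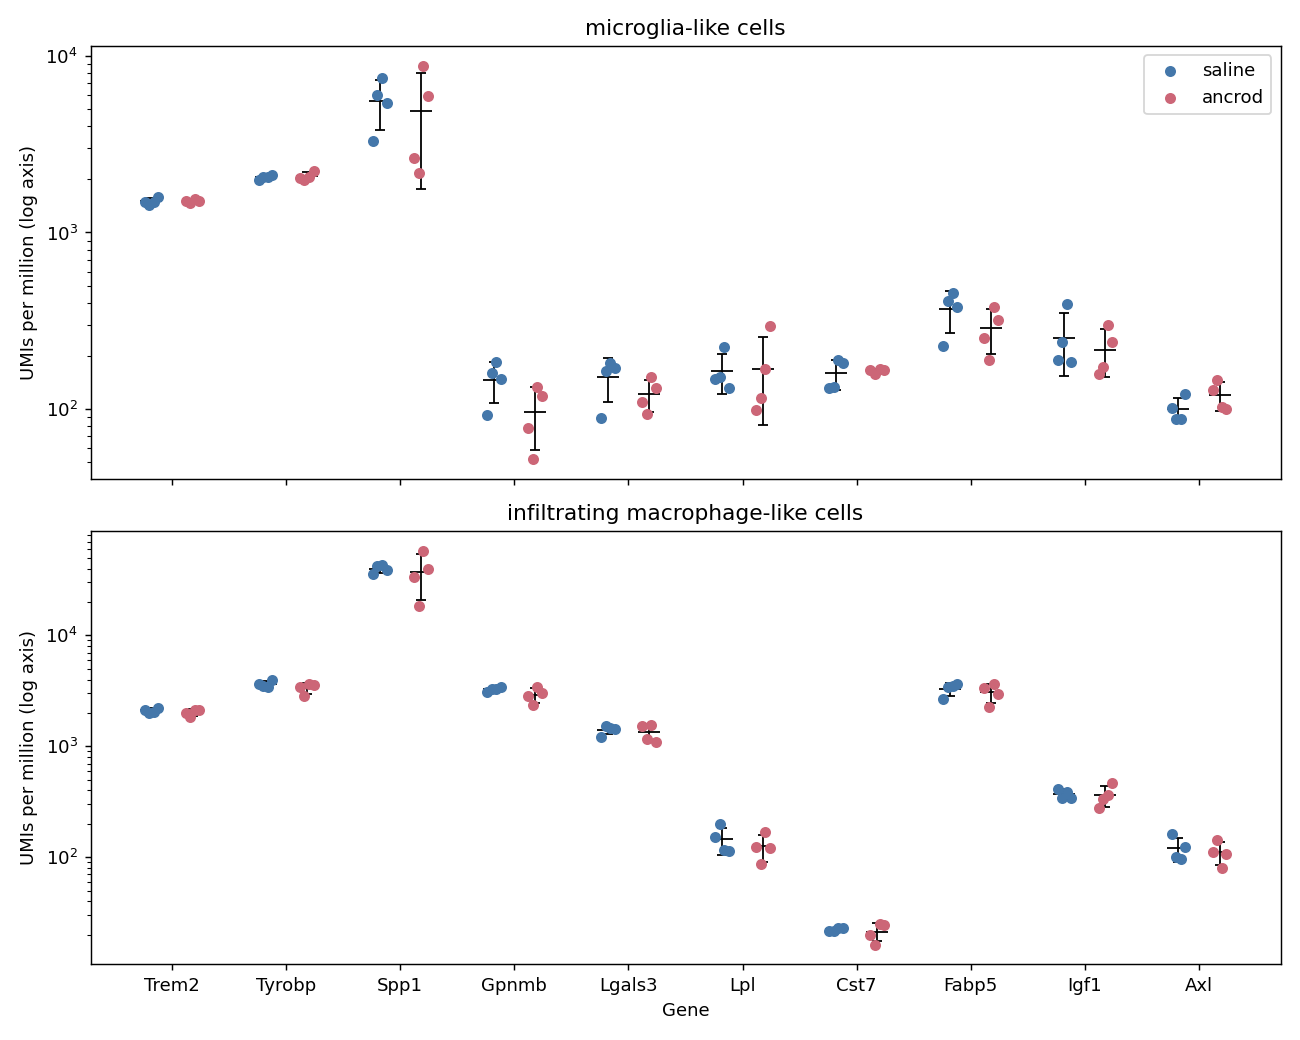
Level of the 10 genes in each mouse, in CPM on a logarithmic axis, for microglia-like (top) and infiltrating macrophage-like cells (bottom). Points are mice (4 control in blue, 4 ancrod-treated in red), and black marks give mean and SD. The 2 groups overlap for all 10 genes in both classes, and the ancrod points of Spp1 spread from 18277 to 57715 in the lower panel.

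In infiltrating macrophage-like cells all 10 log2 fold changes were below 0, from -0.07 for Igf1 to -0.23 for Lpl, none with an adjusted p under 0.05 (0.999 for each, edgeR). Their median was -0.12, beside a median of -0.0024 over all 10814 genes, of which 49.3% were above 0. Gpnmb was at 3065, 3275, 3257 and 3442 CPM in control mice and at 2840, 2367, 3431 and 3001 CPM in ancrod-treated mice. In 3 of 4 ancrod-treated mice the value lay below every control value, the groups overlapped, and the log2 fold change was -0.19 ± 0.12. Without ancrod replicate 2 the log2 fold changes of Spp1, Cst7 and Fabp5 were 0.14, 0.04 and 0.01, and without ancrod replicate 1 that of Igf1 was 0.05.

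Of the 4 phagocyte classes, infiltrating macrophage-like cells had shares of all cells that did not overlap between groups. Infiltrating macrophage-like cells made up 7.11% ± 0.760 of cells in ancrod-treated mice and 4.33% ± 0.865 in control mice, ranges of 6.25 to 8.10% and 3.63 to 5.59%. The other 3 classes overlapped, with microglia-like cells at 35.2% ± 5.99 and 42.1% ± 1.80, border-associated macrophage-like cells at 2.21% ± 0.326 and 1.72% ± 0.270, and monocyte-like cells at 0.963% ± 0.907 and 1.04% ± 0.815. Cells of the unnamed cluster led by S100a4, Chil3 and Ccr2 are counted in none of these classes. These shares count cells recovered after dissociation, so more cells in the tissue and easier release from it cannot be told apart. Shares of 1 sample also depend on each other, and endothelial-like cells moved further, at 10.0% ± 3.61 in ancrod-treated and 18.7% ± 1.42 in control mice without overlap, while fibroblast-like cells were at 7.41% ± 4.23 and 3.15% ± 1.85. Summed over all kept cells, where fewer cells of a type and less RNA per cell cannot be told apart, no member was called (0% of 16176 genes, 2716 at an unadjusted p under 0.05, 789 called by DESeq2, none of them a member). There Gpnmb was at 368 ± 45.8 CPM in ancrod-treated and 356 ± 81.5 CPM in control mice, a log2 fold change of 0.00 ± 0.20, and Trem2 at 778 ± 76.7 and 888 ± 101 CPM, -0.23 ± 0.14.

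In border-associated macrophage-like cells, 7 of the 9 genes tested had log2 fold changes below 0 and the median was -0.22, beside -0.0064 over all genes. Fabp5 was at 487, 457, 803 and 417 CPM in control mice and at 503, 295, 342 and 334 CPM in ancrod-treated mice. The values of 3 ancrod-treated mice lay below every control value, and the log2 fold change was -0.57 ± 0.21 (unadjusted p = 0.0172, adjusted p = 0.603, edgeR). Trem2 (-0.22 ± 0.10) and Spp1 (-0.55 ± 0.23) also had an unadjusted p under 0.05. Without the low-UMI cluster of 202 cells, an alternative added after seeing the data, the log2 fold change of Fabp5 was -0.02 ± 0.28, with 319, 151, 437 and 244 CPM in control mice and 441, 228, 232 and 235 CPM in ancrod-treated mice, that of Trem2 was -0.17 ± 0.12, and that of Spp1 turned to 0.44 ± 0.24. The lower Fabp5 and Spp1 values were thus not found in the larger cluster of the class. Tyrobp was at 1789, 1865, 1841 and 1920 CPM in control mice and at 1599, 1670, 1688 and 1735 CPM in ancrod-treated mice. These were the only non-overlapping groups among the 37 tests, with a log2 fold change of -0.16 ± 0.09 (adjusted p = 0.777, edgeR). Without the low-UMI cluster the Tyrobp groups overlapped, at 1552 to 1741 CPM in control and 1534 to 1615 CPM in ancrod-treated mice (log2 fold change -0.05 ± 0.09). Groups did not overlap for 4.16% of all genes in this class, beside 2.59% for monocyte-like, 2.08% for microglia-like and 1.81% for infiltrating macrophage-like cells. Relative to free RNA, levels in this class over the mice were 0.24 to 0.51 times for Fabp5 and 0.20 to 0.39 times for Spp1. They were 0.58 to 1.07 times for Trem2 and 0.64 to 1.47 times for Tyrobp. The part of free RNA in these results was not tested.

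In monocyte-like cells, with 11 to 129 cells a mouse, the 8 genes tested had log2 fold changes from -0.37 ± 0.53 for Spp1 to 1.25 ± 0.74 for Lpl, the latter from 112 UMIs in all. Lgals3, at 4.41 times its level in free RNA, had -0.03 ± 0.14, and Tyrobp, at 1.16 times, had -0.07 ± 0.09. With the 10 genes kept in the clustering, the signs of Trem2, Gpnmb, Lgals3, Fabp5 and Axl turned in this class.

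**Figure D5:**
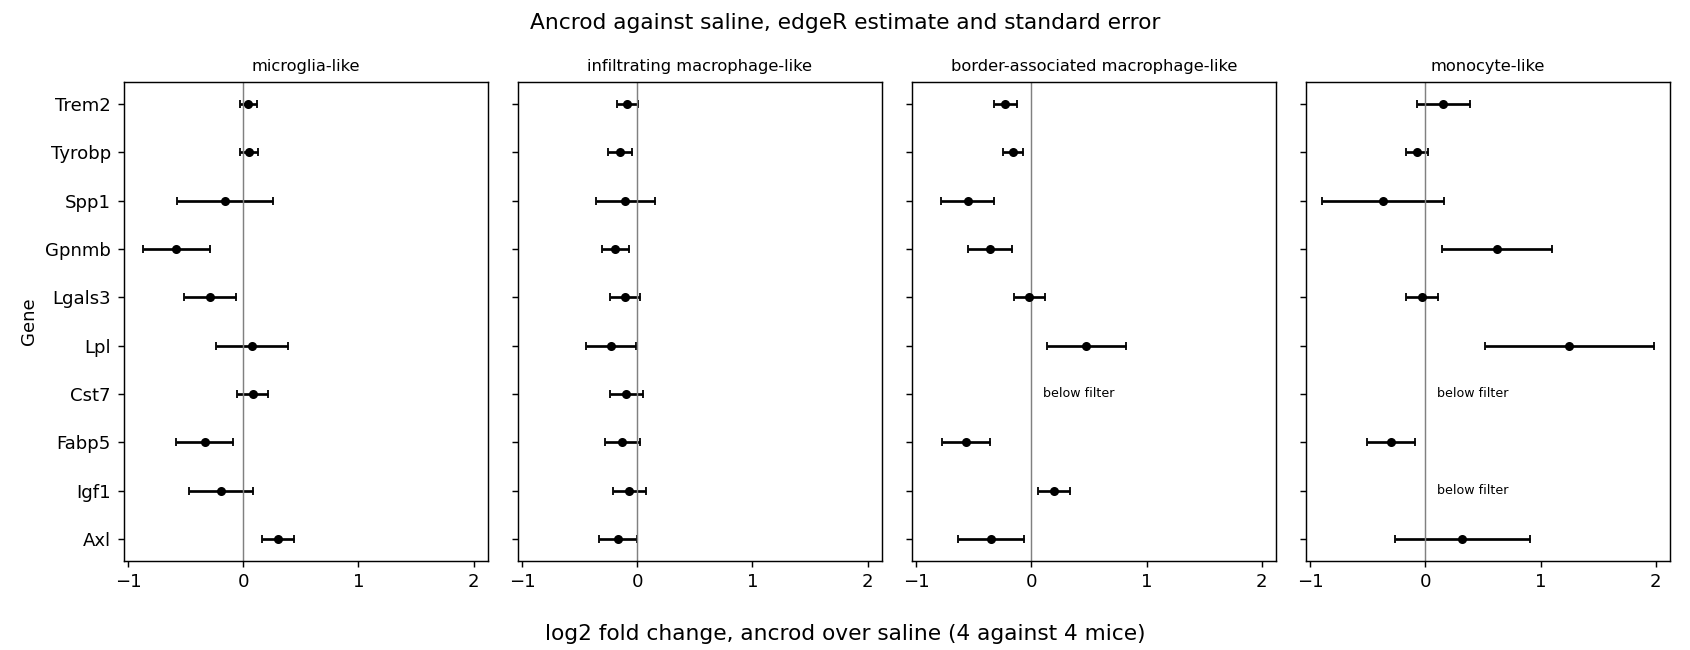
edgeR log2 fold change, ancrod over saline (4 against 4 mice), with its standard error for the 10 genes in the 4 phagocyte classes; genes under the filter on low counts are named as such. All points are below 0 in infiltrating macrophage-like cells (-0.07 to -0.23), and in monocyte-like cells the error bar of Lpl reaches 0.74 on either side.

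Outside the 4 classes called phagocyte classes here, 1 of 69 tests over 9 classes passed. These 9 include neutrophil-like and dendritic cell-like cells. Control replicate 3 had too few neuron-like cells, so tests of that class used 3 control mice. Fabp5 was higher in pericyte-like cells of ancrod-treated mice, at 569, 436, 296 and 702 CPM against 227, 153, 326 and 128 CPM in control mice. The values of 3 ancrod-treated mice lay above every control value and the groups overlapped. The log2 fold change was 1.31 ± 0.25 (adjusted p = 0.0254, edgeR; 0.0544 with DESeq2), and 0.562% of 9079 genes were called in this class. It was 0.88 as a log2 ratio within batch 1 and 2.45 in batch 2. The call was lost without control replicate 1, 2 or 4, without ancrod replicate 1, with doublets kept (adjusted p = 0.268) and with at least 5000 UMIs. In these fits the log2 fold change was 0.98 with doublets kept and 1.14 to 1.37 in the others. Free RNA held Fabp5 at 1060 to 1582 CPM in control and 763 to 1671 CPM in ancrod-treated mice, above the level in pericyte-like cells, and its part in the result was not tested.

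In the other 8 classes the share called was 0% (astrocyte-like, dendritic cell-like, endothelial-like, fibroblast-like, neuron-like, neutrophil-like, smooth muscle-like and T and NK cell-like cells). Fabp5 in dendritic cell-like cells was at 97.3 to 179 CPM in ancrod-treated and 29.6 to 97.1 CPM in control mice, which did not overlap, as for 3.52% of genes (log2 fold change 1.01 ± 0.28, adjusted p = 0.503, edgeR). Free RNA held Fabp5 at 763 to 1671 CPM in ancrod-treated and 1060 to 1582 CPM in control mice, above both, and its part was not tested. Trem2 in endothelial-like cells was at 9.90 to 11.6 CPM in ancrod-treated and 13.5 to 21.9 CPM in control mice, without overlap, as for 4.45% of genes. Its log2 fold change was -0.74 ± 0.15 (adjusted p = 0.463 with edgeR, 0.0219 with DESeq2). In free RNA Trem2 was at 711 to 1215 CPM in ancrod-treated and 1023 to 1308 CPM in control mice, far above both, and its part in the result was not tested.

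Genes around the 10 were read from 4 lists. Of 19 genes of TREM2 signaling (kinases, adaptors and related receptors), 25 damage-associated genes, 15 homeostatic microglial genes and 36 partners (ligands, receptors, proteases and transcription factors), none passed in either direction in the 4 phagocyte classes. In microglia-like cells 19, 25, 15 and 33 of them were tested, with median log2 fold changes of -0.03, 0.00, -0.02 and -0.04. The lowest unadjusted p in each list belonged to Cblb, Plcg2 and Lat2 (-0.13, -0.10 and 0.12), Clec7a, Mmp12 and Cd52 (0.23, -0.34 and 0.16), Txnip, Selplg and Olfml3 (-0.30, -0.16 and 0.07) and Fabp7, Igfbp3 and Itga9 (1.12, 1.23 and -0.35), with Fabp7 at 3.23 and Igfbp3 at 0.241 CPM in control mice. In infiltrating macrophage-like cells 18, 25, 14 and 31 were tested, with medians of -0.02, -0.12, 0.00 and -0.06. There the lowest p belonged to Trem3, Trem1 and Ptpn6 (0.82, 0.31 and -0.11), Clec7a, Itgax and B2m (-0.22, -0.39 and -0.16), Selplg, Tmem119 and Olfml3 (-0.10, 0.13 and -0.06) and Igfbp2, Igfbp5 and Tfeb (1.69, 1.39 and -0.23). Clec7a, the receptor dectin-1 and a marker of damage-associated microglia, was at 286 ± 44.1 CPM in control and 327 ± 26.4 CPM in ancrod-treated mice in microglia-like cells, and at 457 ± 17.5 and 400 ± 39.1 CPM in infiltrating macrophage-like cells. The medians of the lists in border-associated macrophage-like cells were 0.06, -0.12, -0.13 and -0.01, and in monocyte-like cells 0.04, -0.02, -0.08 and -0.05. Summed over all kept cells, 15 of 15 homeostatic microglial genes had log2 fold changes below 0 (median -0.40, none called), beside a median of -0.01 and 48.0% above 0 over all genes. Of the other lists, 15 of 19 genes of TREM2 signaling, 20 of 25 damage-associated genes and 22 of 36 partners were below 0 in this sum. Within microglia-like cells 5 of the 15 homeostatic genes were above 0 and 10 below. Microglia-like cells were 35.2% ± 5.99 of cells in ancrod-treated and 42.1% ± 1.80 in control mice. The part of these shares in the sum was not tested.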

How the data were processed

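The authors processed the 8 libraries (10x Genomics 3′ v3.1) with Cell Ranger 7.1.0 and STAR against GRCm39, counting exonic and intronic reads, and deposited raw UMI counts per gene and droplet without normalization or cell filter. The labels name C57Bl/6J and female mice, whereas the methods name C57BL/6N and both sexes. Each barcode set was read with Python 3.11.15. Pairs of libraries shared 3 to 15 barcodes of kept droplets. Doublets were scored against simulated pairs of droplets, and the highest scores were removed, a larger share in libraries with more kept droplets. Cells were clustered (3000 variable genes without the 10 members, 30 principal components, 20 neighbours, Leiden resolution 2), and clusters were named by the highest scaled mean of 4 to 10 markers. Clusters stayed unnamed that had fewer than 3 detected markers, leading genes or scores of another class, or low UMIs without an own marker among the leading genes, by thresholds set after the clusters had been seen. Mice with at least 10 cells of a class entered its tests (edgeR 4.0.16, filterByExpr, TMM; DESeq2 1.42.0 as alternative, R 4.3.3). Named genes were the 10 members, genes of the lists that passed or else the 3 with the lowest p, and the 3 most like each member. Levels are means over mice with SD, on the CPM scale of summed UMIs, and classes were compared without a test. Scripts were tested on simulated data. The members and lists were chosen with earlier results of these data known. Promoter windows came from GENCODE vM39. Windows other than the 3 shown are not reported here. The mouse is the replicate. For Gpnmb and Spp1 in microglia-like cells, with 37318 to 1601118 UMIs, n = 4 a group limits the precision more than counting error. This does not hold for genes with few UMIs, such as Lpl (112) and Axl (116) in monocyte-like cells.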

Additional observations from a re-analysis of the deposited data

Results flagged for a closer look

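Igf1 summed over all kept cells was at 242 CPM in control replicate 3, far from the other control mice, whose highest value was 168 CPM and lowest 156 CPM. The gap was 0.860 of the group's range, above Dixon's 95% critical value for 4 samples. It was the only such value in 94 groups of 4 mice from the phagocyte classes and all kept cells, and chance gives about 1 in 20 groups. Other classes were not checked. In the same mouse Igf1 in microglia-like cells was at 394 CPM, against 184 to 240 CPM in the other control mice. Without this mouse the log2 fold change of Igf1 over all kept cells was 0.03, against -0.19 with it.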

How the results depend on the processing

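Tests of the members in the phagocyte classes, all kept cells and the interaction, and of Fabp5 in pericyte-like cells, were recomputed under alternative settings. Of 954 such tests of single genes, 887 kept direction and side of the threshold, 60 turned sign and 7 lost the call. The cause was not tested. Members in the other classes were otherwise left out of this count, among them Trem2 in endothelial-like cells, which passed with DESeq2. No member was called in a phagocyte class under any of these settings, and all 7 lost calls were of Fabp5 in pericyte-like cells. With DESeq2 3 genes passed in microglia-like, 3 in infiltrating and 13 in border-associated macrophage-like cells, 5 in monocyte-like cells, 789 in all kept cells and 345 in the other classes (51 by edgeR). Without the filter on low counts these were 1 in infiltrating and 14 in border-associated macrophage-like cells, 31 in monocyte-like cells, 388 in the other classes and 4 for the interaction. With doublets kept 1 gene passed in microglia-like and 1 in infiltrating macrophage-like cells, 2 in all kept cells and 10 in the other classes, and with at least 5000 UMIs 20 in the other classes. At Leiden resolution 1 the numbers were 2 for border-associated macrophage-like and 1 for monocyte-like cells, and with members kept in clustering 2 for border-associated macrophage-like cells. With batch as a covariate 3 passed in monocyte-like cells and 90 in the other classes, and Lpl in microglia-like cells had -0.0309. With the replicate number as a replicate block, 2, 3 and 198 genes passed in border-associated macrophage-like, monocyte-like and the other classes, and Lpl in microglia-like cells had -0.0301. Over all replicate numbers the r of same-numbered mice ran from -0.41 to 0.30, so the numbers give no general pairing. For replicate 4, the pair of batch 2, r was above 0 throughout. It was 0.03 in microglia-like, 0.11 in infiltrating and 0.14 in border-associated macrophage-like cells, and 0.30 in all kept cells. The main tests held no batch term. Of the recomputed levels of single members in the phagocyte classes, 42 moved by at least 1 SD over mice and 88 did not.

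Signs also turned in border-associated macrophage-like cells for Spp1 (0.44) and Lgals3 (0.0728) without the low-UMI cluster, an alternative chosen after seeing the data, and for Lgals3 with doublets kept (0.0921), at least 5000 UMIs (0.00614) and members kept (0.00735). In monocyte-like cells, with doublets kept, resolution 1 and members kept, Gpnmb had -0.14, -0.0796 and -0.30, Lgals3 0.0894, 0.11 and 0.0648, Fabp5 0.24, 0.36 and 0.32, and Axl -0.14, -0.37 and -0.12. Trem2 had -0.31 with doublets kept and -0.0916 with members kept, and Spp1 0.0464 at resolution 1. Gpnmb over all kept cells had -0.00883 with doublets kept and -0.00565 with at least 5000 UMIs.

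Without single mice, the number of genes passing ranged from 0 to 1 for the interaction, all kept cells and monocyte-like cells, from 0 to 5 for border-associated macrophage-like cells and from 13 to 96 for the other classes. The log2 fold changes whose sign turned ranged in microglia-like cells from -0.60 to 0.0917 (Spp1), -0.39 to 0.13 (Igf1), -0.33 to 0.28 (Lpl) and -0.019 to 0.19 (Cst7). In infiltrating macrophage-like cells they ranged from -0.43 to 0.14 (Spp1), -0.26 to 0.00923 (Fabp5), -0.23 to 0.0485 (Igf1) and -0.20 to 0.0381 (Cst7). In monocyte-like cells they ranged from -0.98 to 0.27 (Spp1), -0.47 to 0.99 (Axl) and -0.13 to 0.0502 (Lgals3), and in border-associated macrophage-like cells from -0.0932 to 0.0943 (Lgals3). Over all kept cells they ranged from -0.37 to 0.19 (Spp1), -0.35 to 0.0284 (Igf1), -0.14 to 0.17 (Gpnmb), -0.0345 to 0.40 (Lgals3) and -0.0491 to 0.13 (Axl), and for the interaction from -0.0952 to 0.29 (Spp1), -0.17 to 0.27 (Igf1) and -0.49 to 0.0958 (Lpl). Total UMIs per library did not overlap between the groups, while median UMIs of kept droplets did; the part of depth was not tested.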
